A study of Mus musculus with 28 samples.

Results

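Actin is the protein of the thin filaments that shape neurites, dendritic spines and astrocyte processes, and a small set of abundant proteins sets how much of it is filament and how much is free monomer. Beta-thymosins hold actin monomers in reserve, profilins pass monomers to growing filament ends, and cofilins sever old filaments and return monomers to the pool. Each of these jobs is shared by paralogs, so the amount of a paralog in a cell is part of how its actin is managed. The 8 genes described here are the cytoplasmic actins Actb and Actg1, the beta-thymosins Tmsb4x and Tmsb10, the profilins Pfn1 and Pfn2, and the cofilins Cfl1 and Cfl2. They were chosen by name, with it already known that Tmsb4x held one of the largest sums of exonic counts, so the high level of Tmsb4x is given as a description. All 8 were found among the 23453 genes of the exonic table and among the 20422 genes of the intronic table.

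The tables hold RNA-seq counts of 28 single mouse brain cells. The sample labels name 8 astrocytes and 12 neurons of genotype C57/BL6, from primary culture of cortex and harvested by pipette, and 8 interneurons of genotype C57/BL6/N, from acute slices that include the prefrontal cortex and harvested by patch clamp pipette. For the cultured cells the protocol in the labels speaks of a male mouse of 3 months and of a perfused, fixed brain, and no age is given for the interneurons. The paper instead describes its mouse neuron and astrocyte cultures as embryonic and of mixed sex. A male mouse of 3 months is what it gives for its brain sections. It does not describe the cultured cells used for RNA-seq separately. No label says which animal or culture a cell came from. Libraries of cultured cells were made with a TruSeq Nano DNA kit and read on a NextSeq, and those of interneurons with a TruSeq Stranded kit and read on a HiSeq.

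The columns of the tables have codes that could not be matched to any label, so each column is a cell of unknown type and no test between cells was made. The columns were arranged in 3 blocks by their codes, with block sizes and markers already known. Block A has the 8 columns BRP564 and BRP566 to BRP572, block B has the 12 other BRP columns, and block F has the 8 columns whose code starts with F. The blocks are as large as the labelled groups, but blocks and groups were not equated, and values of blocks are set side by side as ranges and medians. Columns of block A had 12969692 to 19798892 exonic counts, block B 17483754 to 26770944 and block F 838343 to 14831505, with a median of 12111, 11366.5 and 4912 genes detected per column. Markers of several cell types were found in each block. The summed level of 7 neuron markers had a median of 565 exonic counts per 1000000 exonic counts of the column (CPM) in A, 7758 in B and 3306 in F, and that of 8 astrocyte markers 2957, 950 and 100.2. Of the astrocyte markers, Slc1a2 went the other way, with medians of 192 CPM in A and 804 in B. Each of the others had a higher median in A than in B, and at most 9.85 CPM in B. In A, 5 mural and fibroblast markers summed to a median of 1383 CPM, mostly Tagln, against 13.2 in B and 0.689 in F. The summed level of the 6 interneuron markers was highest in F, with a median of 4477 CPM, against 39.1 in B and 17.4 in A. In F, Gad1 and Slc32a1 had medians of 2754 and 531 CPM, Gad2 10.2, and Pvalb, Sst and Vip 0. Medians of Gad2 and Sst were higher in B, at 36.3 and 0.113, and that of Pvalb in A, at 4.02. The 7 microglia markers had medians of at most 8.01 CPM, with 1 column, F16, at 2093, and the 4 endothelial markers of at most 11.1, with Cldn5 at 0 in every column. Columns F11 and F12 were far more alike than any other pair of F columns, with a Pearson correlation of log2 CPM of 0.955 where the other 27 pairs lay between 0.154 and 0.406. Their counts still differed by more than sampling noise, with a chi-square per degree of freedom of 17.6 against 1261 to 4011 for the other pairs. Whether they hold the same cell is not stated. Without F12 the median of F was 5966 genes detected, and the CPM medians of F were 585 for Actb, 3141 for Tmsb4x, 2477 for Pfn2, 14.1 for Cfl2, 8.02 for Cfl1, 7.06 for Actg1 and 0.115 for Pfn1, where the values below include F12.

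The paralogs of a pair are distinct genes on different chromosomes, and their coding sequences differ enough for reads to be told apart in most places. The first 30 coding bases are shown to let each pair be compared, with capitals where a base differs from the partner gene. The positions are in GRCm38, from the GENCODE M21 annotation, and all genes but Cfl1 lie on the minus strand.
Actb: atggaTgaCgaTatcgcTgcGctGgtcGtC
Actg1: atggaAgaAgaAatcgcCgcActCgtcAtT
Tmsb4x: atgTcTgacaaAccCgaTatggCTgaGatc
Tmsb10: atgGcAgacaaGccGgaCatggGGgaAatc
Pfn1: atggccggGtggAaCGCctacAtCgaCaGc
Pfn2: atggccggTtggCaGAGctacGtGgaTaAc
Cfl1: atggcCtctggTgtGGcTgtCTCtgatgGT
Cfl2: atggcAtctggAgtTAcAgtGAAtgatgAA

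The actin starts lie in exon 2 of Actb at chr5:142905657-142905686 and in exon 2 of Actg1 at chr11:120348062-120348091. Those of the thymosins lie in exon 2 of Tmsb4x at chrX:167208007-167208036 and in exon 1 of Tmsb10 at chr6:72957983-72958012. The profilin starts lie in exon 1, at chr11:70654451-70654480 for Pfn1 and at chr3:57847453-57847482 for Pfn2. In both cofilins an intron follows the start codon, so 3 of the bases are in exon 1, at chr19:5490600-5490602 for Cfl1 and chr12:54862744-54862746 for Cfl2, and the next 27 in exon 2, at chr19:5492497-5492523 and chr12:54861807-54861833. Over the whole coding sequence, identity was 88.6% of 1125 bases between Actb and Actg1, 69.7% of 132 bases between the thymosins, 61.7% of 420 bases between the profilins and 71.5% of 498 bases between the cofilins.

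Other loci can take or lend reads for some of these genes. Of the 50-base words in the annotated transcripts of Actg1, 37.4% also occur in transcripts of other genes, most of them in the processed pseudogene Gm12715. The same share was 27.0% for Tmsb10, mostly with Gm9844, 18.3% for Cfl1, mostly with Snx32 that overlaps it on the other strand, 9.12% for Actb, mostly with Lrrc58, and 1.01% for Cfl2. It was 0 for Tmsb4x, Pfn1 and Pfn2. Near copies of the coding sequence, matching at least 80% of it with no less than 90% identity, numbered 9 for Actg1, 8 for Tmsb10, 3 for Cfl1 and 2 for Actb. One of those of Actb, in Lrrc58, was the only near copy with counts in the exonic table, 153129, or 17.0% of the counts of Actb. How the authors counted reads with several matches is not given in the sources used here. The levels of Actg1, Tmsb10, Cfl1 and Actb are therefore uncertain, as are the shares of the pairs that hold them. The percentages of shared words do not bound that error, since reads need not be spread evenly over a transcript. For Tmsb4x and both profilins no shared word and no near copy was found in the annotated transcripts. Copies outside the annotation and more diverged or partial matches were not sought.

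Tmsb4x was the most abundant of the 8 genes in every one of the 28 columns when levels were divided by exon length. Its 3539260 exonic counts, 0.801% of all, were the second highest sum in the table after Rn45s, the ribosomal RNA precursor. Per kilobase of exon they were the highest among the 21817 genes, 93.0% of all, that have an annotated length. Over the columns its level ran from 1642 to 13702 CPM with a median of 7062. Actb and Pfn2 came next with 899764 and 917487 exonic counts, ranks 22 and 21 by sum. The remaining members were far lower: 95968 counts for Cfl2, 72804 for Actg1, 50820 for Cfl1, 3651 for Pfn1 and 1061 for Tmsb10. Together the 8 genes took a median of 1.20% of a column's exonic counts, from 0.318% in F7 to 2.59% in F16.

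Per kilobase of exon, the median CPM fell from 5151 for Tmsb4x to 691 for Actb, 508 for Pfn2, 63.3 for Actg1, 58.4 for Cfl2, 29.1 for Cfl1, 2.08 for Pfn1 and 1.41 for Tmsb10. Some neighbours in that order changed places from column to column. Actb was above Pfn2 in 15 of 28 columns, Actg1 above Cfl2 in 15, Cfl2 above Cfl1 in 17 and Pfn1 above Tmsb10 in 17. Pfn2 was above Actg1 in 28 of 28 and Cfl1 above Pfn1 in 26.

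**Figure D1:**
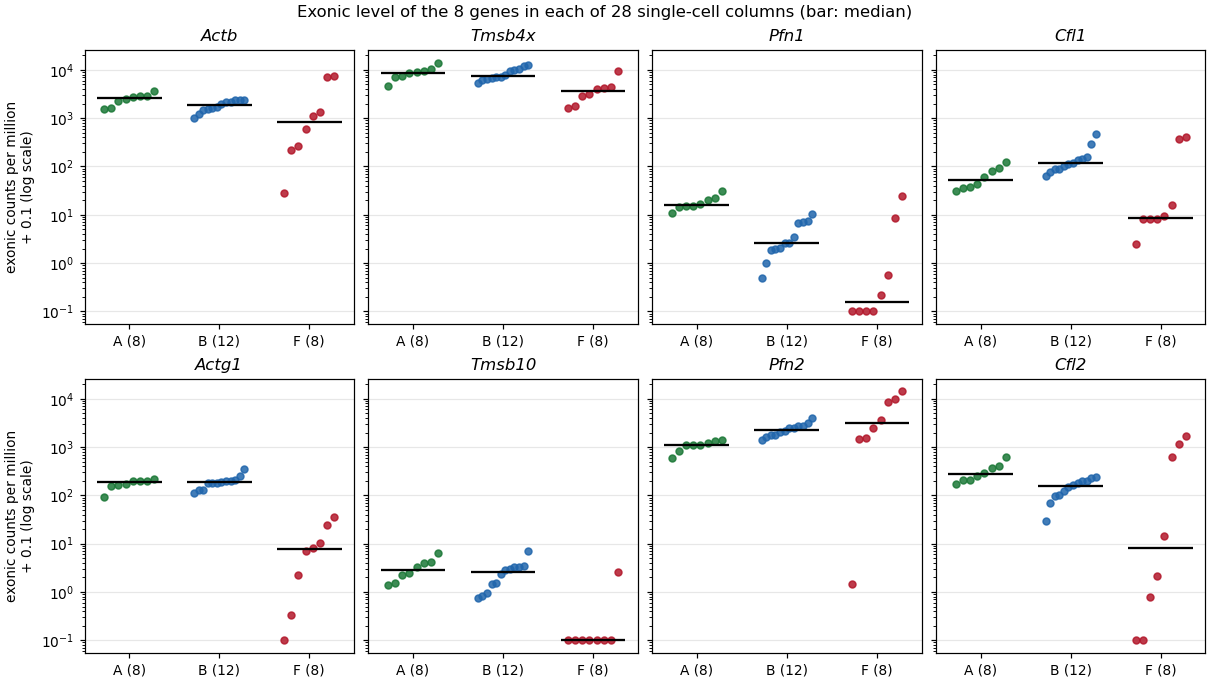
CPM plus 0.1, on a log axis, of each gene in 28 columns, 1 point per column, with the columns of blocks A, B and F side by side, sorted by level, and a bar at each median. Tmsb4x has the highest point in 24 of 28 columns, with Pfn2 above it in F1, F11, F12 and F16 and Actb above it in F11 and F12 on this scale without length, Pfn1 is higher in all 8 A columns than in the 12 B columns, and F columns spread widest, with Tmsb10 at 0 in 7 of 8.

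Actb, the beta-cytoplasmic actin, had a median of 2663 CPM in A (1559 to 3649), 1852 in B (1018 to 2410) and 837 in F (28.1 to 7456). The A and B columns stayed within a narrow band, whereas F columns ranged 266-fold, from F7 at the bottom to F11 and F12, at 7121 and 7456, at the top. Actg1, the gamma-cytoplasmic actin, had a median of 185 CPM in A (91.0 to 216.6), 188 in B (112 to 351) and 7.59 in F (0 to 36.4). F16 had no Actg1 count, which with its depth allows up to 3.58 CPM. Every A and every B column was above every F column for Actg1, the one member of 8 for which this held in either comparison. Over the 10644 genes with a count in at least 14 columns, which include all 8 members, 27.3% had every A column above every F column and 13.2% every B column above every F column. No member had every A column below every F column, where 0.047% of the genes did. With TMM or DESeq2 factors in place of total counts, Actg1 ranges overlapped in both comparisons. These factors were far from total counts in some F columns. TMM set the total of F11 to 268988 in place of 4390487, and that of F12 to 846765 in place of 2707087, though these columns were alike. DESeq2 factors set that of F16 to 53125 in place of 838343. The part of such factors in the overlap was not tested. Block F was lower for most genes of the table: the log2 difference of block medians, of CPM plus 1, had a median over all 10644 genes of 4.18 between A and F and 3.70 between B and F. The differences from F were smaller for Actb, 1.67 from A and 1.14 from B. The latter was -0.73 with DESeq2 factors, where the median over all genes was 2.46.

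Actb was the larger of the actin pair in every column. The share of Actb per exon length was above 50% in 28 of 28 columns, with a median of 92.9% and a range of 84.8% to 100%. It had a median of 93.8% in A (88.9% to 96.0%), 91.6% in B (84.8% to 94.8%) and 99.4% in F (85.6% to 100%). F24 was at 85.6% and the other 7 F columns at 98.2% or more. As the share is close to its ceiling, it hides a wide range of count ratios, from 5.62 counts of Actb per count of Actg1 in BRP529 to 1008 in F11. A share within a pair does not depend on how a column is scaled.

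Tmsb4x, which encodes the main monomer-binding thymosin, had a median of 8681 CPM in A (4726 to 13702), 7448 in B (5352 to 12898) and 3564 in F (1642 to 9640). The ranges overlapped in all 3 comparisons of blocks. The order of the block medians was not stable: A was above F in CPM, by 1.28 on the log2 scale, and below it with TMM factors, at -0.35, and with DESeq2 factors, at -0.23, and A was above B in CPM, by 0.22, and not with TMM factors, at -0.04. In A and B, Tmsb4x ranked between 1 and 6 among all genes of its column, and in F between 18 and 117. Tmsb10 had a median of 2.81 CPM in A (1.27 to 6.18) and 2.48 in B (0.658 to 6.84), and counts in all 20 of these columns. In F it had counts only in F7, where 22 counts made 2.53 CPM. The 7 other F columns were at 0, which allows between 0.202 and 3.58 CPM at their depths. Tmsb4x was at least 99.9% of the thymosin pair per exon length in every column.

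The profilins were the only pair whose share did not overlap between blocks A and B, while in CPM this was so for Pfn1 and not for Pfn2. Pfn1, the widely expressed profilin, had a median of 15.9 CPM in A (10.8 to 31.6) and 2.52 in B (0.398 to 10.1), a 6.31-fold ratio of medians. Every A column was above every B column, although the lowest A column, at 10.8 CPM, was close to the highest B column, BRP542, at 10.1. Pfn1 was the one member with such ranges between A and B, where 3.8% of the 10644 genes had every A column above every B column and 7.61% did not overlap in either direction. The separation of Pfn1 held with TMM and DESeq2 factors, but it was then not the only one. Pfn2 with TMM and Actb and Cfl2 with DESeq2 factors also did not overlap, as did 7.47% and 10.3% of all genes. Leaving out BRP528 could not undo the separation, since removing a column adds no overlap. In F, Pfn1 had counts in 4 columns, 24.4 CPM in F2, 8.56 in F1, 0.473 in F24 and 0.115 in F7, the last 2 resting on 1 count each. F6, F11, F12 and F16 had none.

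Pfn2, the profilin prominent in brain, ran the other way. Its median was 1110 CPM in A (590 to 1426), 2279 in B (1410 to 4063) and 3084 in F (1.38 to 14278). The A and B ranges met only at their ends, with the highest A column at 1426 and the lowest B column at 1410, and with TMM factors they did not overlap. F16 had the highest Pfn2 level of all columns and F7 the lowest, 12 counts. Without F7 the F columns were between 1497 and 14278 CPM, each above every A column, which was the case for 7 of 10644 genes. F7 was left out after its value was seen, so the separation follows from that choice. With F7 the ranges overlapped, and without it the lowest F column, at 1497, was close to the highest A column, at 1426. The log2 difference of the A and B medians was 2.26 for Pfn1 and -1.04 for Pfn2, where the median over all 10644 genes was 0.29. The direction of both differences was the same with TMM and DESeq2 factors, as it was for Cfl1 and Cfl2. With DESeq2 factors the ratio of the A to the B median was 0.842 in place of 0.487 for Pfn2. It was 0.738 in place of 0.443 for Cfl1, 2.92 in place of 1.75 for Cfl2 and 11.1 in place of 6.31 for Pfn1. The median log2 difference over all genes also rose, from 0.29 in CPM to 0.96 with DESeq2 factors. The upward shift of these ratios is thus not particular to them.

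The share of Pfn1 in the pair makes the same contrast without any scaling. Per exon length it had a median of 2.59% in A (1.52% to 3.41%) and 0.244% in B (0.0214% to 0.814%), so that the lowest A column was above the highest B column. With the lengths of the longest coding transcripts the medians were 4.68% and 0.451%, and the ranges again did not overlap. In F it was 0 in 4 of the 7 columns with at least 20 counts of the pair, 0.0452% in F24, 0.340% in F1 and 2.34% in F2. Pfn2 thus made up most of the profilin counts per length in each of these 27 columns.

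**Figure D2:**
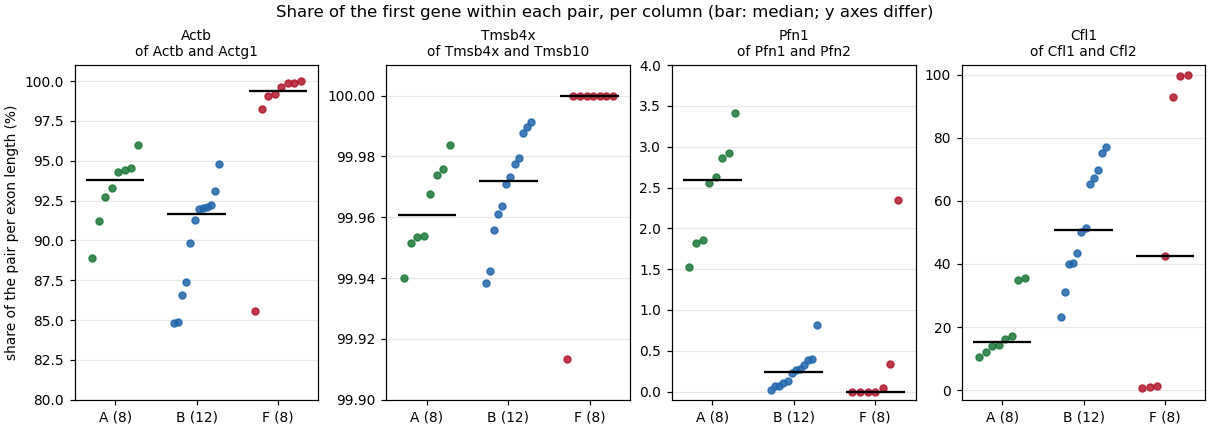
Share of the first gene of each pair per exon length, in percent, in columns with at least 20 counts of the pair, by block, with a bar at each median and a different y axis in each panel. Actb and Tmsb4x dominate their pairs everywhere, Pfn1 reaches 3.41% at most with the A columns above all B columns, and Cfl1 ranges from 0.793% to 100%.

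Cfl1, the non-muscle cofilin, had a median of 51.5 CPM in A (30.2 to 120.8), 116 in B (62.2 to 478) and 8.58 in F (2.36 to 411). F11 and F12, at 411 and 378 CPM, stood above the other 6 F columns, the highest of which was at 15.5. Cfl2, the muscle-type cofilin, had a median of 273 CPM in A (169 to 635) and 156 in B (29.4 to 237), and the ranges overlapped. In F, Cfl2 split the columns, with 1684 CPM in F16, 1142 in F2 and 628 in F1, and 0 to 14.1 in the other 5. The columns high for Cfl2 were low for Cfl1, at 15.5, 7.95 and 8.02 CPM. F6, F7 and F24 were low for both, with 9.13, 7.94 and 2.36 CPM of Cfl1 and 14.1, 0.690 and 0 of Cfl2. Only F11 and F12, which may hold the same cell, were high for Cfl1, with 2.05 and 0 CPM of Cfl2.

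The cofilins were the pair with the most even shares. Cfl1 was 40.1% of the cofilin pair per exon length in the median column and above 50% in 10 of 27 columns. Its share had a median of 15.3% in A (10.6% to 35.5%), with 0 of 8 columns above 50%, and 50.9% in B (23.1% to 77.1%), with 7 of 12 above 50%. The ranges of A and B overlapped, since BRP566 and BRP570 of A reached 35.5% and 35.0%, above BRP529 and BRP540 of B at 23.1% and 31.0%. In F the share took values near both ends, 0.793%, 1.05% and 1.45% in F2, F16 and F1, 42.6% in F6, and 93.0%, 99.6% and 100% in F7, F11 and F12.

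**Figure D3:**
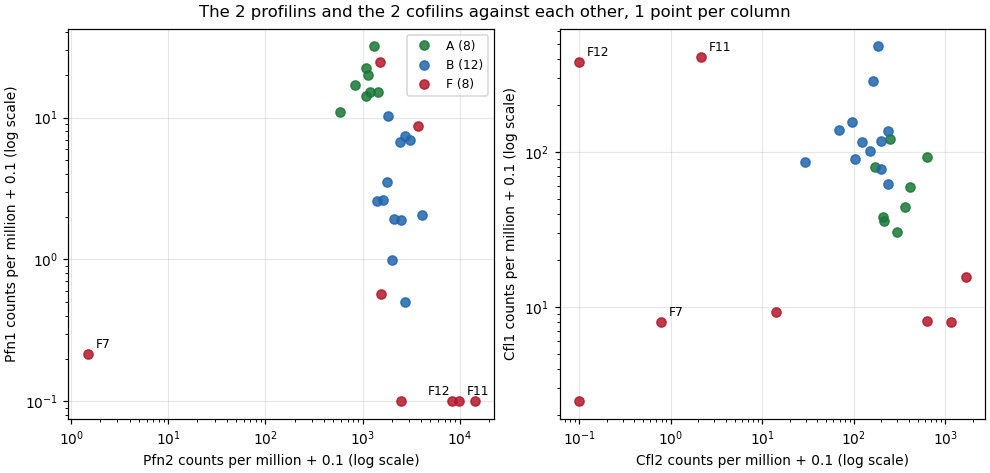
Pfn1 against Pfn2 on the left and Cfl1 against Cfl2 on the right, in CPM plus 0.1 on log axes, 1 point per column, coloured by block. The A columns lie above and to the left of most B columns for the profilins and below and to the right for the cofilins, and F7, F11 and F12 are named.

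Across columns the members did not move as a unit. Over the 20 BRP columns, Spearman's rho of CPM was -0.70 between Pfn1 and Pfn2, -0.47 between Cfl1 and Cfl2, 0.60 between Pfn2 and Cfl1 and 0.48 between Pfn1 and Cfl2. These values describe columns that come from both blocks, with levels that are shares of the same total. Within A alone rho between Pfn1 and Pfn2 was 0.29, within B alone -0.03, and for Cfl1 and Cfl2 0.19 and -0.13. Actb and Actg1 had a rho of 0.13 and Tmsb4x and Tmsb10 of 0.40 over the 20 columns.

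Among the genes whose CPM followed a member most closely over all 28 columns were Fam188a for Actg1 (rho 0.91), Ctdnep1 for Tmsb10 (0.86), Ubl5 for Cfl1 (0.86), Snx11 for Actb (0.81), Brd8 for Cfl2 (0.78), Dazap1 for Tmsb4x (0.78) and Chn1, a Rac regulator of neurons, for Pfn2 (0.76). The next for Actb was Tubb5, a beta-tubulin, at 0.80. Ntrk2, the receptor of brain-derived neurotrophic factor, was among the nearest 3 for Pfn1, at 0.87. The points share the split between deep BRP and shallow F columns. Of the 24 genes chosen by this measure, 3 for each member, 6 were among the nearest 3 with TMM factors and 5 when the 20 BRP columns alone were used.

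Intronic counts of the members were few. Their annotated introns are short, with 126 bases in Tmsb10 to 2644 in Pfn2 that lie outside all exons. Tmsb4x had 10 intronic counts beside its 3539260 exonic ones, Actb 28, Cfl1 9, Pfn1 4, Actg1 1 and Tmsb10 0, the last allowing a share of up to 0.347% by an exact binomial interval. Over 972 genes with at least 3000 exonic counts and at most 3000 intronic bases, the median intronic share was 0.0233% and 65.6% of genes were under 0.1%. Actb at 0.00311% and Tmsb4x at 0.000283% were thus below that median, and Actb's 28 counts were all in BRP540.

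Pfn2 and Cfl2 were the exceptions, and their intronic counts came from few cells. Pfn2 had 3963 intronic counts, 0.430% of its total, of which 2115 were in BRP542, 1249 in BRP540, 388 in BRP570, 117 in BRP571 and 88 in BRP529. In BRP542 5.36% of Pfn2 counts were intronic, and in 19 of 28 columns none were. Cfl2 had 513 intronic counts, 0.532% of its total, of which 402 were in BRP542, 56 in F2, 21 in BRP540 and 19 in BRP567. They made 11.4% of the Cfl2 counts of BRP542. BRP540 and BRP542 also had the highest intronic shares over all genes among the BRP columns, 38.8% and 32.3%, and the part of that in the counts of Pfn2 and Cfl2 was not tested. Without both columns the intronic share was 0.0720% for Pfn2 and 0.101% for Cfl2. In 7 of the 8 F columns 36.3% to 63.0% of all counts were intronic, yet Pfn2 had 2 intronic counts there in all.

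**Figure D4:**
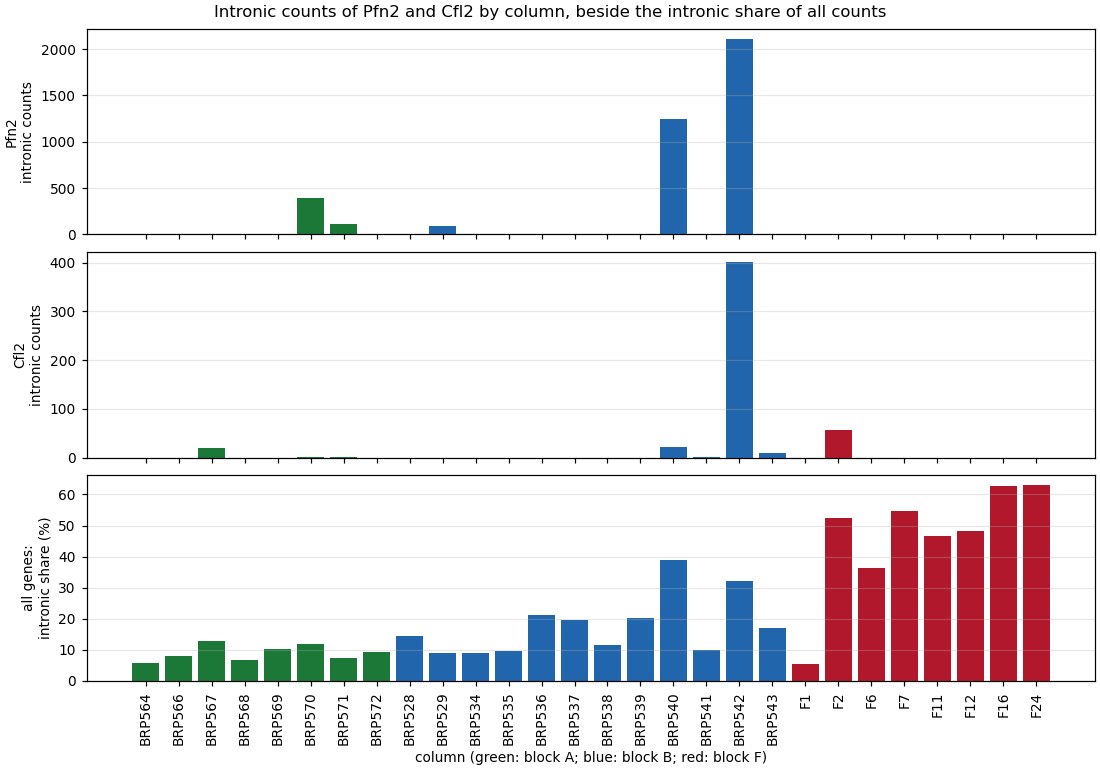
Intronic counts of Pfn2 and of Cfl2 in each column, and below them the intronic share of all counts of the column in percent, with bars coloured by block. Most Pfn2 counts are in BRP540 and BRP542 and most Cfl2 counts in BRP542, while the high intronic shares of F columns come with almost no intronic count of either gene, F2 excepted for Cfl2.

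The transcription factor SRF, which actin monomers control through the coactivators MRTFA and MRTFB, binds the CArG box in promoters of many actin genes. The CArG box was sought on both strands in RefSeq promoter windows of GRCm38.p6, 250 bases before to 50 after a start site. Among the 7 members with a window, Actg1 had a match, shown because it is the only one, in capitals within 30 bases of its minus strand at chr11:120348566-120348595.
Actg1: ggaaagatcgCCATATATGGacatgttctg

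A match occurred in 1.81% of 27025 genes with a window. Actb was not matched to a window. The absence of these letters says nothing beyond the window searched. Srf itself had a median of 65.0 CPM in A, 71.0 in B and 0.181 in F, and Mrtfb 24.7, 116 and 0.216.

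Other genes of the actin pathway were taken from 12 lists of 86 genes, all found in the exonic table, 72 of them with a count in at least 14 columns. A column had counts of a median of 74 of them in A (70 to 79), 71 in B (69 to 75) and 42 in F (22 to 56), or 47 without F12. After thinning each column to 800000 exonic counts the medians were 67.5, 64 and 25.5. Of the 72, 12.5% had A and B ranges without overlap, against 7.61% of all genes, 33.3% had A above F, against 27.3%, and 16.7% had B above F, against 13.2%. In the A and B comparison 5 genes were higher in A and 4 lower.

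Among the other actins, Acta2, the actin of smooth muscle, was more abundant in A than Actb. Its level was 3358 to 9170 CPM in A, with a median of 4926, against 0.974 to 329 in B and 0 to 1.66 in F. Per exon length it was 59.1% to 82.6% of the sum of Acta2 and Actb in the A columns and at most 14.6% in any B column. Of its 50-base words none occurred in transcripts of Actb and 0.326% in those of Actg1. In the same columns the smooth muscle gene Tagln had a median of 1337 CPM, and the part of other cells in this was not tested. Of the other mural and fibroblast markers, Pdgfrb had medians of 14.7, 0 and 0 CPM in A, B and F, and Col1a2 13.7, 0.0946 and 0.689. Col1a1 had 0.623, 0 and 0, and Rgs5 was at a median of 0 in each block. Acta1, the actin of skeletal muscle, had a median of 0.123 CPM over all columns. Tmsb15a and Pfn3 were at 0 in every column, and the other members of the thymosin and profilin lists had a median of 0 over all columns. In A, Tmsb15b1 had counts in 8 of 8 columns with a median of 3.74 CPM, against 2.81 for Tmsb10.

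Genes that act on cofilins had a wide range of levels. The 8 kinases and phosphatases had a list median of 4.75 CPM in A and 18.5 in B, with Ssh1 at a median of 0 in both. Dstn, which encodes destrin, a relative of the cofilins, had medians of 70.1, 65.9 and 1.05 CPM in A, B and F. Limk2, a kinase that inactivates cofilins, had 33.9, 63.5 and 1.17, and Ssh2, a phosphatase that restores them, 9.06, 85.6 and 2.61. Of the cofilin partners, Coro1c, a coronin, had 319, 252.5 and 1.03 CPM and Wdr1, which helps cofilins take filaments apart, 424, 164 and 1.81. The ranges of all 5 overlapped between A and B.

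The leading branching and capping genes were well expressed in A and B. Arpc5 and Arpc2, subunits of the branching Arp2/3 complex, had medians of 680 and 774 CPM in A and 1010 and 687 in B. Brk1, a small subunit of the WAVE complex that activates it, had 239 and 378, and Abi2, another subunit, 54.8 and 309, with every A column below every B column. Evl, of the Ena/VASP family, had 52.1, 170 and 212.6 CPM in A, B and F. Its highest block median was in F, where only 5 of 8 columns had a count of it. Fmn2, a formin of neurons, had 78.0 and 100.4 in A and B, and the capping subunits Capzb and Capza2 806 and 250 in A and 424 and 205 in B.

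Among the tropomyosins and bundlers, Marcks, a membrane protein that binds filaments, had a median of 1177 CPM in A and 463 in B. Gap43, a protein of growing axons, had 124 in A (15.3 to 270) and 1083 in B (710 to 2731), with no overlap. The other genes without overlap between A and B were Arpc1b, Tpm2, Tpm4 and Actn1, higher in A, as was Acta2, and Cyfip2 and Tmod1, lower in A, as were Abi2 and Gap43. Tpm4, a tropomyosin, had 593 CPM in A (187 to 654) and 29.3 in B (0.0572 to 146.0), and Actn1, an actinin that crosslinks filaments, 1408 (844 to 2091) and 342 (157 to 787).

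**Figure D5:**
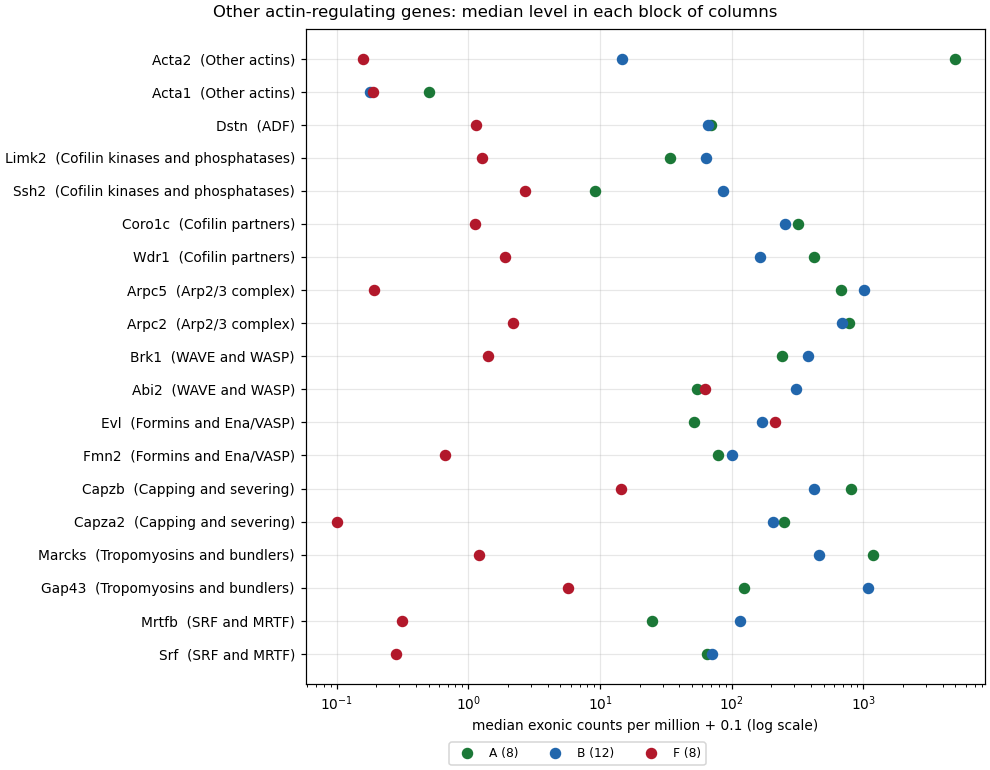
Median CPM plus 0.1, on a log axis, in blocks A, B and F, of the named genes of the pathway lists, at most 2 per list, with the list in brackets. Acta2 is at 4926 in A against 14.7 in B, Gap43 and Abi2 are lower in A than in B, and most genes are far lower in F.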

How the data were processed

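RNA-seq of 28 single cells was deposited as 2 tables, exonic and intronic. The authors deposited raw counts per gene and column; per the labels, bcl2fastq 2.17, STAR 2.4.0 and mm10 were named, while the counting tool, annotation, strand setting and treatment of multiply matching reads are not given in the sources used here. No column was matched to a sample, so all columns were 1 pooled set and no test, SD or p-value is given. The genes, lists and blocks were chosen with earlier results of these data known.

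Exonic counts were divided by the column's total exonic counts (CPM) and, between genes, by the length of the union of exons in GENCODE M21. Pairs needed 20 counts in a column. Blocks were compared by whether ranges of CPM overlapped, over 10644 genes with a count in at least 14 columns. Likeness is Spearman's rho. Intervals are exact binomial at 95%, a count of 0 was taken to allow 3 counts, and both cover counting error only, since the reads were amplified. The genes named were the 8 members, the 3 genes most like each, and in each pathway list the 2 with the highest median CPM, genes at 0 throughout and, chosen after their values were seen, those without overlap between A and B. Not all of these are reported here. Older symbols were matched through RefSeq. Python 3.11.15, pandas 2.3.3, scipy 1.17.1, R 4.3.3, edgeR 4.0.16 and DESeq2 1.42.0 (scaling factors only) and BLAST 2.17.0 were used. Functions for overlap and rho were tested on simulated data. The alternatives were other scalings, other lengths, other minimums, thinning, each column left out, and, chosen after seeing the data, without F12, F7, BRP528 or the pair BRP540 and BRP542, the BRP columns alone and columns with at least 5000000 exonic counts.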

Additional observations from a re-analysis of the deposited data

Results flagged for a closer look

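In the blocks of 8 columns, 24 sets of values were examined for a column far from the others, by the gap to its neighbour over the whole range. By chance about 1 in 20 sets of replicates would pass, and the columns of a block are not known to be replicates. The 5 values that passed were all in block F. Tmsb4x was at 9640 CPM in F16, the shallowest column, where the next highest was at 4310. Tmsb10 was at 2.53 CPM in F7, against 0 in the other 7 columns, which also set the Tmsb4x share of the pair there to 99.9%. Pfn1 was at 24.4 CPM in F2, against 8.56 in the next. The Actb share of the actin pair was 85.6% in F24, against 98.2% in the next. F7 was also the column with the highest astrocyte marker sum of block F, 4352 CPM, and the lowest levels of Actb and Pfn2 of all columns.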

How the results depend on the processing

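No paired analysis was possible because the columns carry no replicate numbers and no test was made. A median was taken as unchanged when it stayed within its 95% binomial interval over the columns, and a count of genes, or a percentage of all genes, when it stayed within 1.5 times. Of 196 alternative values, 168 were unchanged, and some of these could not have moved. Leaving out 1 column shifts a median over the columns only to a nearby value, inside its interval. Dropping a column that is in neither compared block leaves a comparison as it was. The count is therefore no measure of how stable the results are. Median CPM moved with DESeq2 factors for Actb, to 1164, and Pfn2, to 1176, and for Actb with TMM factors, to 1423, and relative to exonic plus intronic counts, to 1494. Other medians stayed inside their wide intervals but also changed by over 1.5 times, with DESeq2 factors from 5.01 to 2.44 for Pfn1, 191 to 102.7 for Cfl2, 168 to 96.0 for Actg1, 82.8 to 47.9 for Cfl1 and 1.80 to 1.19 for Tmsb10, and with TMM factors to 126 for Cfl2 and 1.18 for Tmsb10. Per exonic and intronic counts the summed share of the members was 1.03%. The DESeq2 factors rest on the 226 genes with a count in every column. The median paralog shares over all columns stayed in their intervals, although that of Pfn1 went from 0.328% to 0.604% with the longest coding transcript. Members without overlap between A and B numbered 2 with TMM (Pfn1, Pfn2) and 3 with DESeq2 factors (Actb, Pfn1, Cfl2). Of all genes, 7.47% and 10.3% did not overlap there, against 7.61% in CPM. Against F, members numbered 0 with TMM or DESeq2 factors from both A and B. Of all genes, 19.6% and 22.2% then did not overlap between A and F. Without F7 the members numbered 3 from A (Actg1, Tmsb10, Pfn2) and 2 from B (Actg1, Tmsb10). The shares of all genes were then 30.1% and 15.2%, against 27.4% and 13.2% with F7. The percentage of all genes without overlap between B and F fell to 8.02% with DESeq2 factors. Of 24 nearest genes, 6 were kept with TMM factors and 5 over the BRP columns. A median column had 64 of the pathway genes at 10 counts or more, and 64 after thinning. Leaving out 1 column at a time, intronic shares ranged from 0 to 0.00338% for Actb, 0 to 0.00150% for Actg1, 0.000116% to 0.000304% for Tmsb4x, 0.210% to 0.474% for Pfn2 and 0.119% to 0.588% for Cfl2. The lowest values were those without BRP540 for Actb, BRP567 for Actg1, BRP569 for Tmsb4x and BRP542 for Pfn2 and Cfl2. Without both BRP540 and BRP542 they were 0 for Actb, 0.0720% for Pfn2 and 0.101% for Cfl2. Depth limits block F most, where 3 counts correspond to up to 3.58 CPM.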
